A study of Mus musculus with 3 samples.

Results

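The 50 genes described here encode the machinery of apoptosis, the programmed death of cells, and the death receptors that can start it. They were taken from a named list, were all protein coding, and each matched 1 of the 41388 genes in the deposited tables. The RNA was taken on embryonic day 14.5 from mouse dorsal root ganglia, which hold the sensory neurons of trunk and limbs. All libraries belong to 1 group: C57BL/6 embryos with the reporter genotype written Tg(Ret-EGFP)SJ, ganglia of levels T11 to S1 dissociated and sorted for green fluorescence. The series description instead calls the reporter a knock-in at Ret, carried in heterozygotes. The reporter marks cells in which the Ret locus, which encodes the receptor of GDNF family ligands, is active. Library A pooled 100 ganglia from 5 embryos, library B 100 from 6 and library D 80 from 4. The labels' protocol allows a dye for dead cells, 7-AAD, to be added before sorting "if needed", and whether it was used for these pools is not stated. Embryos of both sexes were pooled in each library.

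Sensory neurons are made in excess, and those that fail to win enough neurotrophic factor die by apoptosis around the time their axons reach their targets. In the mitochondrial pathway, BH3-only proteins sense stress or loss of trophic signals and bind the guardian proteins of the BCL2 family. The effectors BAX, BAK and BOK then open the outer mitochondrial membrane, cytochrome c is released, APAF1 assembles the apoptosome, and caspase 9 activates the executioner caspases. The second pathway starts at the cell surface, where death receptors recruit FADD and caspase 8 or signal through TRADD, RIPK1 and TRAF proteins. Mouse sensory neurons without Bax survive the loss of nerve growth factor, which made this gene a standard tool in the field.

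Levels are given as TPM (length-scaled transcript abundance) computed within each library from the deposited counts and gene lengths, as a mean ± SD over 3 libraries (n = 3) unless a library is named. The SD covers differences between embryo pools and technical noise together. Total counts ran from 20181558 to 29061086, and 1 read was worth 0.0344 to 0.0496 CPM, the count scaled to a common library total. For a count of 0 the upper limit was set at 3 counts, and no molecular identifiers were described, so such limits cover counting error only. The 8 sensory neuron markers all reached 1 TPM and summed to between 25938 and 30119 TPM per library. Markers of other cell types were lower: 6 glial genes summed to 487 to 878 TPM, 5 erythroid genes to 65.0 to 260.3, 6 mesenchymal genes to 18.8 to 70.3, 6 macrophage genes to 5.26 to 12.5 and 4 endothelial genes to 2.73 to 3.99. No marker was at 0 in all 3 libraries. Mitochondrial genes took 1.14% to 2.75% of counts, most in D, and their part in the differences of D below was not tested. Sorted cells were measured in bulk, so fewer cells of a type and less RNA per cell cannot be told apart.

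Of the 50 genes, 39 reached a mean of 1 TPM, 20 reached 10 TPM and 3 reached 100 TPM. Among all protein-coding genes of the tables, 55.3% reached 1 TPM. The 3 highest were Bax (an effector), Bcl2l1 (a guardian) and Bad (a BH3-only gene), 1 from each class of the BCL2 family. Bax alone took 31.2% ± 4.50 of the summed TPM of the list. The 7 genes with under 10 counts in some library were Bcl2a1b, Bik, Pmaip1, Fas, Tnfrsf1b, Trp63 and Trp73. The median over the 50 genes was 5.98 TPM (A), 5.59 (B) and 4.33 (D), so the typical gene of the list was expressed at a few TPM. Every class held at least 1 gene with a mean above 10 TPM.

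**Figure D1:**
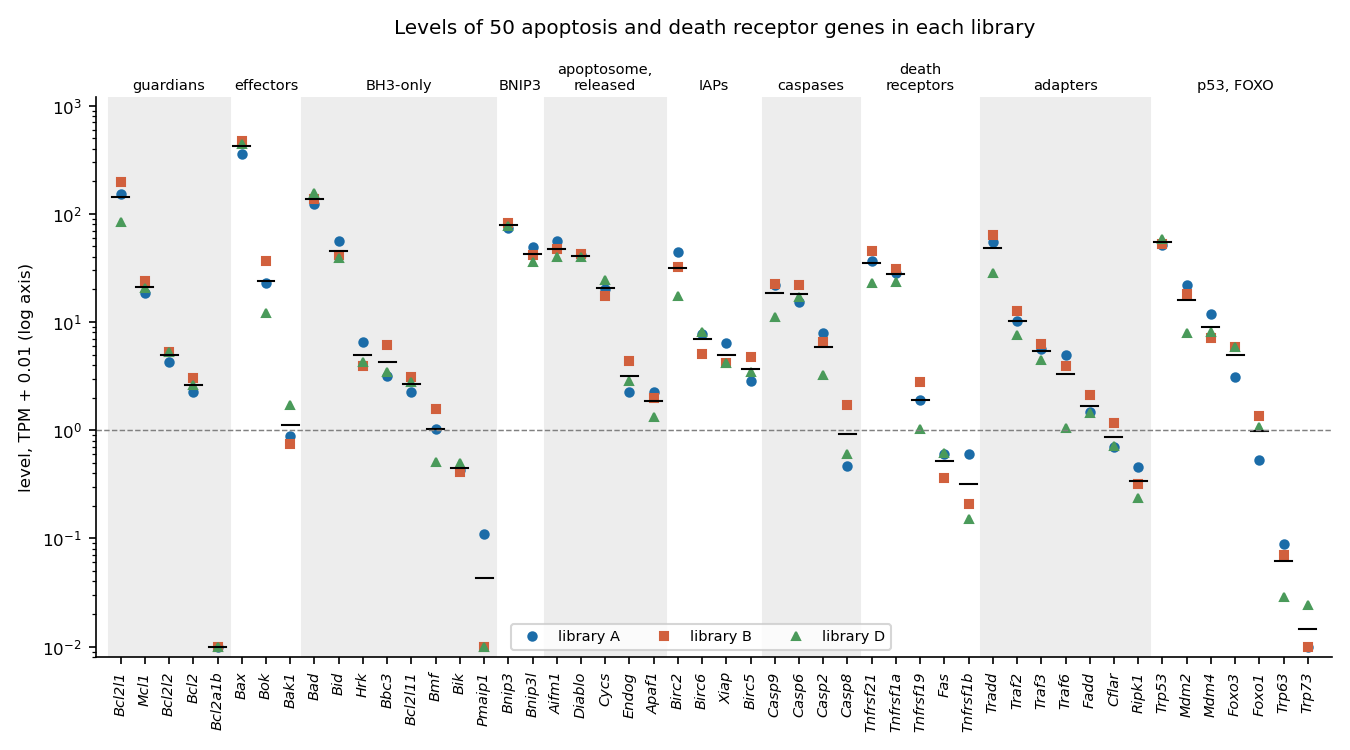
Level of each of the 50 genes by class, as TPM + 0.01 on a log axis, with 1 point per library and a bar at the mean of 3 libraries. Bax, Bcl2l1 and Bad stand above 100 TPM on average, the dashed line marks 1 TPM, and genes at the bottom had few or no reads.

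The regions around the transcription starts of 3 BCL2 family genes are shown because they span the range of levels: Bax, the highest effector, Bcl2l1, the highest guardian, and Bcl2a1b, which had no reads. Each is 300 bases long, from 250 before to 50 after a start annotated by RefSeq (build GRCm38.p6), printed 5′ to 3′ on the gene's strand, with every CG dinucleotide in capitals. Bax lies at chr7:45466849-45467148, minus strand, with 19 CG dinucleotides, Bcl2l1 at chr2:152831679-152831978, minus strand, with 22, and Bcl2a1b at chr9:89199023-89199322, plus strand, with 4.
Bax: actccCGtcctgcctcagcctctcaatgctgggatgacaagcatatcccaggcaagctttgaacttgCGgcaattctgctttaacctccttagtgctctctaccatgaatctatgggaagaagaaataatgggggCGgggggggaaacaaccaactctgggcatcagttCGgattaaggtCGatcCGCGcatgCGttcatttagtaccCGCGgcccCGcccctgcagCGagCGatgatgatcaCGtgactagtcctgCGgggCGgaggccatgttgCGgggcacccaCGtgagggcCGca
Bcl2l1: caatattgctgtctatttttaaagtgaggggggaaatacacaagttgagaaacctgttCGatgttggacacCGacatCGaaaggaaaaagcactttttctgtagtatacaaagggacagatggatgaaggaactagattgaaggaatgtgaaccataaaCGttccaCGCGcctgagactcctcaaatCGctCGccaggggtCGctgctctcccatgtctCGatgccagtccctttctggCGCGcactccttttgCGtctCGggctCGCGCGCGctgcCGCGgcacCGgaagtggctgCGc
Bcl2a1b: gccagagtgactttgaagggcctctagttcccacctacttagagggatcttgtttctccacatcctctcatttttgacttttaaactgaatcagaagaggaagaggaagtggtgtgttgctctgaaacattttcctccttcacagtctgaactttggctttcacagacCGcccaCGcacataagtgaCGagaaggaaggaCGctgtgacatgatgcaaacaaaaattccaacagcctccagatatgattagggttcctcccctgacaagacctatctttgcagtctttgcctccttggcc
Of the 50 genes, 45 had such a region, and there was no entry for Bik, Bnip3l, Pmaip1, Tradd or Trp63. Where a gene had several annotated starts, the one with the most CG dinucleotides was counted. The motif searched was CG, which reads the same on both strands and occurs at least once in 94.6% of all 32851 regions in the table. The 37 genes at or above 1 TPM had a median of 22 CG dinucleotides (9 to 59) and the 8 below it a median of 13.5 (4 to 39), against 16 over 16300 protein-coding genes. Those 16300 genes were not split by level, so whether this gap is particular to the list was not tested. The count did not order the genes by level: Bcl2, with 44 CG dinucleotides, stood at 2.63 ± 0.378 TPM, and Trp73, whose richer start had 39, had 1 read in all.

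The guardians bind and restrain the effectors. Bcl2l1, which encodes BCL-XL (ENSMUSG00000007659, chromosome 2, 152780668 to 152831728, GRCm38.p2), was the main one, with 5324, 7134 and 4955 counts. It stood at 153 TPM (A), 195 (B) and 83.5 (D), that is 144 ± 56.5 TPM. It made up 85.9% of the summed TPM of the 5 guardians (A), 85.7% (B) and 74.7% (D). Library D was the low one. The summed erythroid markers were highest there (260.3 TPM against 72.2 in A and 65.0 in B), though Alas2 was highest in A (1.76 TPM against 1.35 in D). The summed glial markers were also highest in D (878 TPM against 487 in A and 783 in B). The part of either cell type in this difference was not tested.

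Mcl1, a guardian with a short-lived protein, followed at 18.6 TPM (A), 24.1 (B) and 20.5 (D) (21.1 ± 2.81 TPM). Bcl2l2, which encodes BCL-W, stood at 4.29 TPM (A), 5.32 (B) and 5.25 (D). Bcl2, the founding gene of the family (chromosome 1, 106538178 to 106714274), stood at 2.26 TPM (A), 3.02 (B) and 2.60 (D), from 157, 220 and 308 counts. The highest library exceeded the lowest 1.30-fold for Mcl1, 1.24-fold for Bcl2l2 and 1.33-fold for Bcl2, and A was the lowest for each. Bcl2a1b, a guardian known from blood cells, had no counts, which allows up to 0.484 TPM (A), 0.461 (B) and 0.284 (D). It shares 401 of its 817 exon bases with the same-strand gene Gm29094, so reads may have been left unassigned and this limit covers assigned reads only. It is also 1 of several near-identical copies, of which Bcl2a1a and Bcl2a1d also had none.

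Within libraries Bcl2l1 exceeded Bcl2 52.0-fold (log2 ratio 5.70 ± 0.60), Mcl1 6.47-fold (log2 Mcl1/Bcl2l1 -2.69 ± 0.58) and Bcl2l2 27.5-fold (log2 Bcl2l2/Bcl2l1 -4.78 ± 0.69), in 3 of 3 libraries each. Mcl1 exceeded Bcl2 8.04-fold (log2 ratio 3.01 ± 0.03). As CPM the log2 ratio was 1.61 for Mcl1/Bcl2 and 4.70 for Bcl2l1/Bcl2. Bcl2l2 also lay above Bcl2 per length (log2 0.92 ± 0.10), but their CPM were nearly equal (log2 -0.12), so this order came from the division by length. Bcl2l2 shares 594 of its 4462 exon bases with the same-strand gene Gm20521, so some of its reads may not be assigned to it.

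Among the effectors, Bax (chromosome 7, 45461695 to 45466898) had the highest TPM of the whole list, with 2364, 3277 and 4939 counts. Its level was 359 TPM (A), 474 (B) and 439 (D), or 424 ± 58.9 TPM, higher than 97.0% of the 13897 genes that reached 1 TPM. Bak1, whose protein acts beside BAX in many other tissues, had only 16, 14 and 53 counts. It stood at 0.877 TPM (A), 0.730 (B) and 1.70 (D), so it lay near the 1 TPM mark and was highest in D. Bok, the remaining member of the class, stood at 23.0 TPM (A), 36.2 (B) and 12.2 (D), highest in B and lowest in D.

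Bax thus exceeded Bak1 409-fold (log2 ratio 8.68 ± 0.66) and Bok 19.4-fold (log2 ratio 4.28 ± 0.78), in 3 of 3 libraries. As CPM the log2 ratios were 7.21 and 3.25, so the order did not rest on gene length. Bak1 shares 357 of its 2407 exon bases with Ggnbp1 on the other strand. How shared bases and strand were handled in counting is not given in the sources.

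The BH3-only genes were uneven. Bad, whose product is held inactive by survival kinases, led with 124 TPM (A), 136 (B) and 154 (D) (138 ± 15.2 TPM). Bid, which links caspase 8 to the mitochondria, stood at 55.7 TPM (A), 41.6 (B) and 39.0 (D). No other gene of this class passed 10 TPM on average. Bad shares 517 of 2007 exon bases with Gpr137 on the other strand and Bid shares 628 of 3550 with Bcl2l13, so part of either level may include or miss reads of the partner.

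The other BH3-only genes, which include those best known from dying sensory and sympathetic neurons, were low or nearly without reads. All means in this group were under 10 TPM. Hrk, which encodes the neuronal protein Harakiri, stood at 6.51 TPM (A), 3.91 (B) and 4.26 (D), highest in A. Bcl2l11, which encodes BIM, stood at 2.23 TPM (A), 3.08 (B) and 2.75 (D), and Bbc3, which encodes the p53 target PUMA, at 3.15 TPM (A), 6.07 (B) and 3.46 (D). Bmf, a partner of the motor proteins of the cytoskeleton, averaged 1.02 ± 0.527 TPM, with 1.00 TPM (A), 1.55 (B) and 0.50 (D). Bik had 3, 3 and 6 counts (0.420 TPM (A), 0.399 (B) and 0.492 (D)). Pmaip1, which encodes NOXA, had 2, 0 and 0 counts, 0.0997 TPM (A), 0 (B) and 0 (D), and its zeros allow up to 0.142 TPM in B and 0.0876 in D.

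Bad exceeded Bcl2l11 51.6-fold (log2 ratio 5.69 ± 0.19) and Bid exceeded it 16.8-fold (log2 ratio 4.07 ± 0.49). As CPM these log2 ratios were smaller, 3.69 and 2.89. Hrk lay above Bcl2l11 in 3 of 3 libraries, but by a margin close to the spread (log2 ratio 0.84 ± 0.62). Bbc3 did so per length (log2 0.60 ± 0.34), while as CPM it lay below (log2 -1.40), since the deposited length of Bcl2l11 is 8029 bases against 2008. Bmf lay 2.90-fold below Bcl2l11 (log2 -1.53 ± 0.81, and -2.15 as CPM).

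The 3 classes were then set against each other within libraries. Summed over members, the effectors reached 383 TPM (A), 510.5 (B) and 453 (D), the guardians 178, 228 and 112, and the BH3-only genes 193.2, 192.7 and 204.6. The guardians lay below the effectors in every library (log2 -1.10 (A), -1.16 (B) and -2.02 (D), mean -1.43 ± 0.51). BH3-only genes also lay below the effectors (log2 -0.99, -1.41 and -1.15, mean -1.18 ± 0.21), and they did not differ from the guardians beyond the spread (log2 0.12, -0.24 and 0.87, mean 0.25 ± 0.57). No p is given for these sums.

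Each sum was carried by 1 gene: Bax made 94.5% ± 2.18 of the effectors, Bcl2l1 82.1% ± 6.43 of the guardians and Bad 70.1% ± 5.59 of the BH3-only genes. The order of the classes also rested on the division by length, because Bax has 869 deposited exon bases, Bcl2l1 4586 and Bad 2007. As CPM, which counts reads alone, the guardians summed to 303, 403 and 223 and the effectors to 133.3, 186.8 and 181.4, which turned the log2 ratio to 0.87 ± 0.49. The log2 ratio of BH3-only genes turned to 0.29 ± 0.25 against the effectors and to -0.57 ± 0.55 against the guardians. The deposited lengths join the exons of all transcripts of a gene, so a gene whose cells use a short transcript is understated in TPM. Without the top gene of each class, the log2 ratio of guardians to effectors was 0.30.

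**Figure D2:**
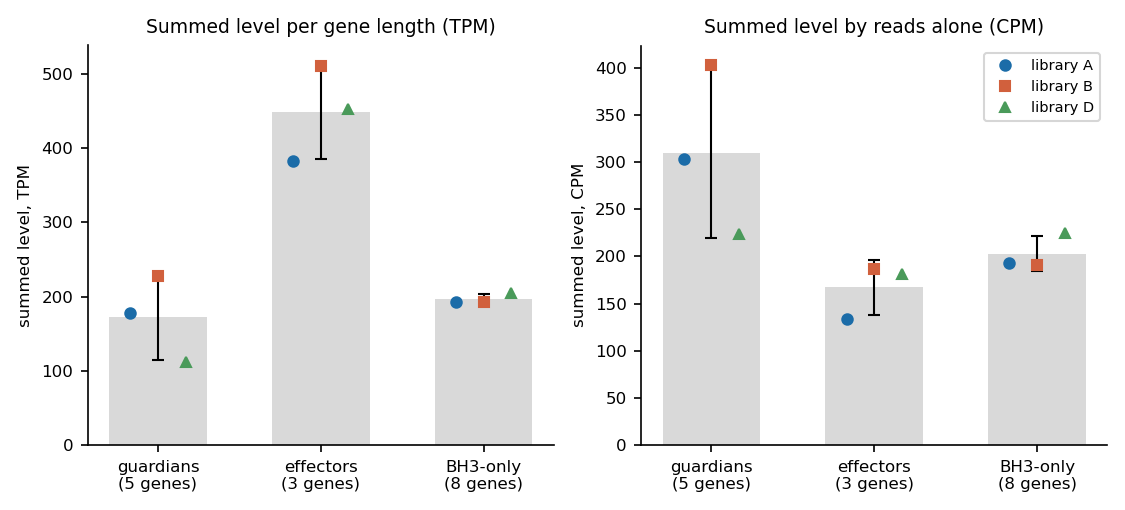
Summed level of the 3 BCL2 family classes per library, as TPM on the left and as CPM on the right; bars are means and error bars SD over 3 libraries, points are libraries. The effectors are highest as TPM (mean 449) and lowest as CPM (mean 167).

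Ratios of genes from opposite sides differed in their spread over the libraries. Bcl2 lay 161-fold below Bax (log2 -7.33 ± 0.06) and Bcl2l2 85.4-fold below it (log2 -6.42 ± 0.05), in 3 of 3 libraries. These SDs rest on 3 values each and were among the lowest of 35 pairs, so they do not show a ratio that is kept. Counts were 157, 220 and 308 for Bcl2 and 145, 189 and 303 for Bcl2l2, and counting error was not separated. Bcl2l1 lay 3.10-fold below Bax per length (log2 -1.63 ± 0.66), at -1.23 (A), -1.28 (B) and -2.40 (D), and above it as CPM (log2 0.77). The order of Bcl2 and Bax held on both scales (log2 -3.94 as CPM), as did that of Bcl2l2 and Bax (-4.06). Mcl1, which binds BAK, exceeded Bak1 20.4-fold (log2 ratio 4.35 ± 0.73).

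Of 38 pairs listed for comparison, 35 could be used, since each gene had 10 or more counts in all 3 libraries. In 30 of them the ratio had the same sign in 3 of 3 libraries, and 12 exceeded 10-fold. With 3 libraries an exact sign-flip permutation test (two-sided) cannot give a p below 0.25, which each of those 30 pairs had (0.292 after Benjamini-Hochberg adjustment over 35 pairs), so no pair could pass 0.05. For 5 pairs the sign turned as CPM. The 3 pairs left out held Fas, Trp73 or Trp63.

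**Figure D3:**
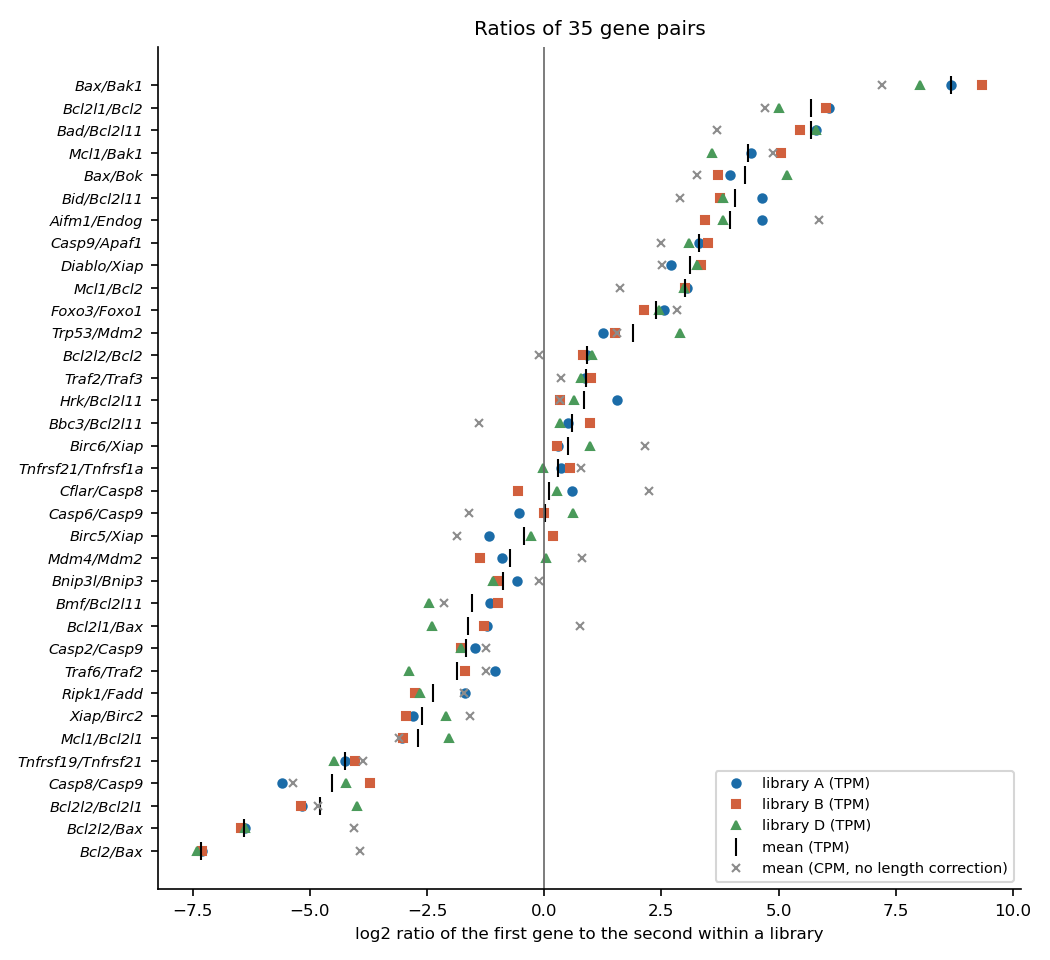
Log2 ratio of 35 gene pairs, each row 1 pair, with coloured points for the TPM ratio in each library, a bar at their mean and a grey cross at the mean CPM ratio. Bax/Bak1 lies farthest to the right (mean 8.68) and Bcl2/Bax farthest to the left (mean -7.33).

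Bnip3 and Bnip3l encode distant BH3 proteins of the mitochondrial surface that serve mainly in the removal of mitochondria. Both passed 10 TPM. Bnip3 stood at 74.0 TPM (A), 82.8 (B) and 77.3 (D) (78.0 ± 4.43 TPM) and Bnip3l at 49.4 TPM (A), 41.8 (B) and 36.1 (D). Bnip3 exceeded Bnip3l 1.85-fold per length (log2 Bnip3l/Bnip3 -0.89 ± 0.27), while the log2 ratio as CPM was -0.12.

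Downstream of the mitochondria, 3 of the 4 genes of released factors passed 10 TPM, whereas Endog and the scaffold gene Apaf1 did not. Aifm1, a flavoprotein of the mitochondrial interior, stood at 55.6 TPM (A), 47.0 (B) and 39.6 (D), and Diablo, whose product relieves the block of caspases by IAP proteins, stood at 41.5 TPM (A), 42.1 (B) and 39.8 (D), a coefficient of variation of 2.85%. Diablo shares 1448 of its 6155 exon bases with AC157931.1 and B3gnt4 on the other strand, so its level may include or miss reads of these partners. Cycs, which encodes cytochrome c, averaged 20.6 ± 3.46 TPM. It has processed copies elsewhere in the genome, so its reads may not be fully separable. Endog, a mitochondrial nuclease, averaged 3.15 ± 1.10 TPM, with 379 of 1063 exon bases shared with Spout1 on the other strand. Apaf1, the scaffold of the apoptosome, had the lowest mean TPM of these genes, at 2.25 TPM (A), 1.99 (B) and 1.30 (D). Endog stood at 2.23 TPM (A), 4.37 (B) and 2.84 (D), just below Apaf1 in A, and as CPM it was below Apaf1 in every library, with 0.892 CPM (A), 1.82 (B) and 1.34 (D) against 7.63 CPM (A), 7.03 (B) and 5.23 (D).

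Casp9, the caspase that the apoptosome activates, stood at 22.2 TPM (A), 22.3 (B) and 11.1 (D) and exceeded Apaf1 9.80-fold in TPM (log2 ratio 3.29 ± 0.20; 2.50 as CPM). Casp6, an effector caspase linked to the pruning of sensory axons, averaged 18.1 ± 3.60 TPM. It could not be ranked against Casp9, since their log2 ratio was -0.54 (A), -0.01 (B) and 0.62 (D) (exact sign-flip p = 1), with a mean of -1.61 as CPM. Casp2, a caspase of the response to genome damage, averaged 5.90 ± 2.43 TPM and was lowest in D. Casp8, the initiator of the death receptor pathway, had 10, 39 and 22 counts and stood at 0.456 TPM (A), 1.69 (B) and 0.588 (D). It was highest in B, where the mesenchymal markers were also highest (70.3 TPM against 18.8 in A and 19.0 in D), and their part in this was not tested. Casp9 exceeded Casp8 22.9-fold (log2 Casp8/Casp9 -4.52 ± 0.97, and -5.36 as CPM).

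Per length, the inhibitor of apoptosis genes were led by Birc2, which encodes the ubiquitin ligase cIAP1, at 44.5 TPM (A), 32.0 (B) and 17.5 (D). Birc2 was highest in A and lowest in D. As CPM the order of Birc2 and Birc6 turned in A and D: Birc6 had 84.3 CPM (A), 56.8 (B) and 104 (D) and Birc2 76.6 CPM (A), 57.4 (B) and 35.8 (D). Birc6, a giant ubiquitin carrier with 28830 exon bases, averaged 6.99 ± 1.70 TPM, and Xiap, a direct inhibitor of caspases, 4.90 ± 1.30 TPM. Birc2 exceeded Xiap 6.11-fold (log2 Xiap/Birc2 -2.61 ± 0.46), and Diablo exceeded Xiap 8.58-fold (log2 ratio 3.10 ± 0.35). As CPM the log2 ratios were -1.59 and 2.51. Birc5, which encodes survivin, a protein of dividing cells, had the lowest mean of the 4, at 2.83 TPM (A), 4.72 (B) and 3.41 (D). Its order against Xiap was not stable (log2 -1.18, 0.18 and -0.28, exact sign-flip p = 0.5), and as CPM the mean log2 ratio was -1.87. It was highest in B, as was the sum of 8 genes of dividing cells (77.3 TPM in B, 59.4 in A and 55.6 in D). The genes of this sum were not uniform. Mki67 was lowest in B (0.199 TPM against 0.602 in A), and Pcna was highest in D (29.0 TPM against 28.4 in B). Each of the others was highest in B. The part of dividing cells in the Birc5 level was not tested.

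Of the 5 receptor genes, 2 passed 10 TPM. Tnfrsf21, which encodes death receptor 6, known for its part in axon pruning, stood at 36.3 TPM (A), 45.6 (B) and 22.7 (D). Tnfrsf1a, the widely expressed TNF receptor, averaged 27.6 ± 4.02 TPM, with 28.4 TPM (A), 31.2 (B) and 23.2 (D). Per length the order of these 2 was not stable, since Tnfrsf21 was higher in A and B but not in D (log2 0.36, 0.55 and -0.03, exact sign-flip p = 0.5). As CPM Tnfrsf21 was higher in every library, with 49.5 CPM (A), 64.7 (B) and 36.7 (D) against 27.6, 31.6 and 26.8 for Tnfrsf1a (mean log2 ratio 0.78). Tnfrsf19, which encodes TROY, averaged 1.89 ± 0.870 TPM, 19.2-fold below Tnfrsf21 (log2 -4.26 ± 0.22).

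Fas, the classic death receptor, had 8, 5 and 14 counts and stood at 0.586 TPM (A), 0.349 (B) and 0.601 (D). Tnfrsf1b, the TNF receptor of immune cells, had 17, 6 and 7 counts, 0.587 TPM (A), 0.197 (B) and 0.142 (D). It was highest in A, where the 6 macrophage markers summed to 12.5 TPM against 5.71 in B and 5.26 in D. The part of macrophage RNA in this level was not tested.

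Below the receptors, the first adapters of the TNF pathway were unequal. Tradd, which binds the death domain of TNF receptor 1, stood at 54.8 TPM (A), 63.3 (B) and 28.1 (D). Traf2, a ubiquitin ligase adapter recruited by TRADD, averaged 10.1 ± 2.48 TPM and exceeded Traf3 1.84-fold in every library (log2 0.88 ± 0.10). Traf3, which restrains the alternative NF-kappaB route, averaged 5.42 ± 0.962 TPM. Traf6, an adapter shared with interleukin-1 and p75 signalling, averaged 3.28 ± 2.02 TPM, with 4.94 TPM (A), 3.89 (B) and 1.03 (D) from 295, 244 and 105 counts. On the log2 CPM scale, D minus the mean of the other 2 libraries was -1.73 for this gene.

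The genes whose products recruit and control caspase 8 were low. Fadd, the bridge between death receptors and caspase 8, averaged 1.66 ± 0.377 TPM, and Cflar, which encodes the decoy FLIP, 0.848 ± 0.261 TPM. Ripk1, the kinase that decides between survival and death signals, stood at 0.451 TPM (A), 0.307 (B) and 0.227 (D), from 21, 15 and 18 counts. It shares 38.3% of its exon bases with Gm17084 and Serpinb6a, so its reads may not be fully separable. Cflar and Casp8 could not be ranked (log2 0.59 (A), -0.56 (B) and 0.27 (D), exact sign-flip p = 0.75, and a mean of 2.23 as CPM), whereas Ripk1 lay 5.17-fold below Fadd (log2 -2.37 ± 0.59, and -1.72 as CPM).

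Of the 3 genes of the p53 family, only Trp53 reached 1 TPM, at 51.9 TPM (A), 52.0 (B) and 58.8 (D) (54.3 ± 3.96 TPM). Trp63 had 5, 4 and 2 counts, 0.0786 TPM (A), 0.0599 (B) and 0.0184 (D). Trp73, whose short isoform is known to counter p53 in sympathetic neurons, had 0, 0 and 1 counts, and its zeros allow up to 0.0715 TPM in A and 0.0681 in B. Mdm2, the ubiquitin ligase that removes p53 and is itself induced by it, stood at 21.7 TPM (A), 18.2 (B) and 7.91 (D), lowest in D. Its relative Mdm4 averaged 8.98 ± 2.43 TPM. Trp53 exceeded Mdm2 3.70-fold (log2 ratio 1.89 ± 0.88). The order of Mdm4 and Mdm2 was not stable (log2 -0.89, -1.36 and 0.04, exact sign-flip p = 0.5), and as CPM the mean log2 ratio was 0.81.

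The FOXO genes encode transcription factors that survival kinases keep out of the nucleus. Foxo3 stood at 3.08 TPM (A), 5.85 (B) and 5.81 (D) and Foxo1 at 0.523 TPM (A), 1.33 (B) and 1.06 (D), both lowest in A. Foxo3 exceeded Foxo1 5.22-fold (log2 ratio 2.38 ± 0.22). Foxo1 shares 674 of its 5552 exon bases with Gm20402 on the other strand, so its reads may not be fully separable.

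Of 48 other genes of the pathway, 28 reached 1 TPM, beside 55.3% of all protein-coding genes. Among the highest were Bex3 (1303 ± 182 TPM) and Maged1 (940.0 ± 221 TPM), which encode partners of the p75 receptor, Ngfr, which encodes p75 itself, and Dffa (99.4 ± 8.23 TPM), which encodes the inhibitor of the nuclease that cuts DNA in apoptosis. Ngfr was uneven, at 1785 TPM (A), 557 (B) and 453 (D). The lowest were Bcl2l10, Bcl2a1a, Bcl2a1d and Tnfsf10, with no counts, and Tnf, with 1 count in D.

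The last comparison asked which genes varied between the 3 pools beyond the spread usual at their level. A negative binomial model without covariates was fitted over all 13530 genes that passed a filter on low counts, with a goodness-of-fit test per gene (edgeR). No gene of the list passed an adjusted p of 0.05, among 43 tested, and the share over all genes tested was 0.177%. At an unadjusted p under 0.05 there was 1 of 43, beside 6.11% of all genes tested. That gene was Traf6, low in D (unadjusted p = 0.013, edgeR adjusted p = 0.62 over all genes). Next in order were Casp8, high in B (log2 CPM in B minus the other 2 libraries 1.42, edgeR adjusted p = 0.88), and Bak1, high in D (1.32, edgeR adjusted p = 0.94). Of the other pathway genes, 0 of 29 tested passed the adjusted threshold and 2 the unadjusted one, Ngfr (edgeR adjusted p = 0.22) and Map3k12 (0.76), a kinase of the stress response in axons. Map3k12 stood at 9.88 TPM (A), 10.3 (B) and 2.92 (D), low in D.

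The median coefficient of variation of TPM over libraries was 26.6% for the 43 genes and 26.8% for all genes tested. On the log2 CPM scale, 19 of the 43 were lowest in A, beside 32.4% of all genes tested, and 15 were lowest in D, beside 38.8%. The genes lowest in D included Traf6, Mdm2, Bmf, Bok, Casp2, Tnfrsf19, Birc2, Tradd, Bcl2l1 and Casp9. Longer genes were relatively higher in A: Spearman's rho across genes between length and the log2 difference of A was 0.36 over all genes tested and 0.35 over the 43, which share libraries and are not independent. For D it was -0.30 over all genes and -0.07 over the 43.

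**Figure D4:**
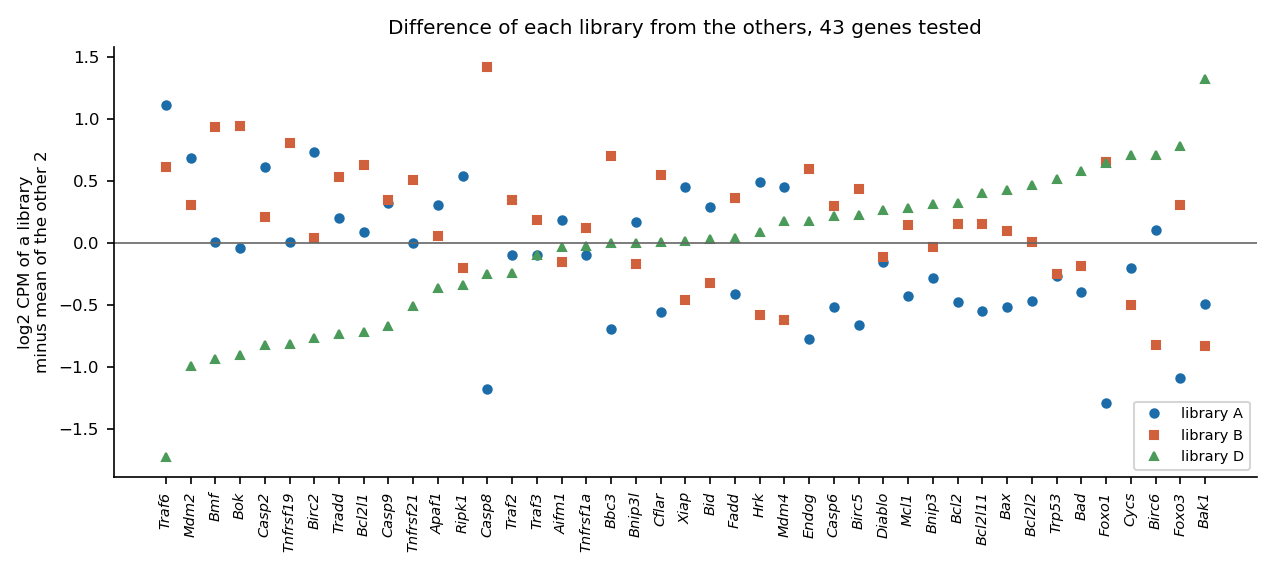
Log2 CPM of each library minus the mean of the other 2, for the 43 genes tested, ordered by the value in D. Points lie on both sides of 0 for all libraries, with Traf6 in D lowest (-1.73) and Casp8 in B highest (1.42).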

How the data were processed

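RNA from 3 pools of sorted cells was measured by RNA-seq, 1 library a pool. Reads were aligned with Subread and counted with featureCounts 1.4.5 on GRCm38.p2, per the submitters' processing notes; settings for strand and multiply matching reads are not given in these sources. The deposited tables hold raw counts per gene with its exon length. They also hold CPM by the authors, which equal counts scaled to the column total, and RPKM by the authors, which are those per kilobase of length; both were recomputed from the counts (largest difference 4.7e-11 and 2.7e-11). TPM was computed from counts and lengths. Symbols came from GENCODE M21 for 40254 of 41388 genes.

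The members and lists were chosen with earlier results of these data known. All 50 genes were accounted for. Values per library were given for the highest and lowest gene of each class, all guardians, effectors and BH3-only genes, genes at an unadjusted p under 0.05 and genes with under 10 counts in a library; of the other pathway genes, the 5 highest, the 5 lowest and those past a threshold were named, except a result that is not reported here. Other genes were described by means or single libraries. Variation between libraries was tested with edgeR 4.0.16 (R 4.3.3): filterByExpr, TMM, trended dispersion, an intercept-only fit and the deviance goodness-of-fit test on 2 degrees of freedom, checked on simulated data. With 1 group there was no contrast for a quasi-likelihood test. Log2 CPM used a prior count of 2. Pairs were compared by an exact sign-flip permutation test. P-values cover differences between these pools only. Alternatives were CPM without length, medians, other pseudocounts, filters, scalings, dispersions, a length trend and leaving out each library.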

Additional observations from a re-analysis of the deposited data

How the results depend on the processing

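The class comparisons depended on the processing. As CPM the log2 ratios were 0.87 for guardians to effectors, -0.57 for BH3-only genes to guardians and 0.29 for BH3-only genes to effectors. As ratios of medians they were -2.14, -0.68 and -2.81, and without the top gene of each class 0.30, 1.03 and 1.34. Leaving out 1 library moved BH3-only to guardians between -0.063 (without D) and 0.49. Of 245 alternative values of the pairs, 237 kept their direction, but most could not have turned. Totals without mitochondrial and hemoglobin genes leave every ratio within a library as it was. For the 30 pairs with the same sign in all libraries, a pseudocount or leaving out 1 library cannot turn the sign. Only leaving out gene length could turn those pairs. Over all 35 pairs, the sign turned as CPM for 5. As CPM the log2 ratio turned to -0.12 for Bcl2l2/Bcl2, 0.77 for Bcl2l1/Bax, -1.40 for Bbc3/Bcl2l11, -1.61 for Casp6/Casp9 and 0.81 for Mdm4/Mdm2. With a pseudocount of 1 TPM, Cflar/Casp8 was -0.0024. Leaving out 1 library gave -0.27 to 0.30 for Casp6/Casp9 and -0.15 to 0.43 for Cflar/Casp8. The CPM changes follow from leaving out gene length; for the others the cause was not tested. Genes varying between libraries numbered 24 of 13530. On the same genes they numbered 55 with the length trend removed, 32 with a common dispersion, 19 with library totals alone and 24 with another scaling (RLE). Without the filter on low counts they numbered 35 of 24745. Leaving out 1 library changed the genes tested, and gave 7 of 14070 without A, 2 of 14212 without B and 27 of 13733 without D. No member passed the adjusted threshold of edgeR under any alternative run (1 at an unadjusted p under 0.05 in the reported fit). No paired analysis was possible because all libraries belong to 1 group. For genes with under 10 counts, depth limits any order between libraries.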
